A study of Mus musculus with 42 samples.

Results

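RNA was sequenced from the left and right heart fields of 5 *Ccdc40* mutant mouse embryos that the study classed as situs solitus, the usual arrangement of the body's left and right. These embryos, named 1_6, 2_2, 17_1, 19_6 and 22_1, gave 10 of the 42 libraries of the series and 5 of its 21 embryos. All 5 were homozygous for the *lnks* allele (*Ccdc40lnks/lnks*), a chemically induced nonsense point mutation, and had a heart tube that looped to the right. The study chose them by clustering all embryos on the right-minus-left expression of genes that were asymmetric in wild types, a tree in which these 5 mutants lay with the wild types. Every right-minus-left value of these 5 embryos therefore belongs to the measure that selected them, and is given here as a description with its error. Fits of these values are reported as counts of genes called, also as a description and not as evidence. The comparison groups were 5 *Ccdc40+/+* wild types, 6 other mutants with rightward looping that the study classed as heterotaxy, and 5 mutants with inverted looping. All embryos were collected at the stage named E8.5i, from a line whose background the methods of the study spell C56Bl6J. The 5 mutants were 3 females (1_6, 19_6, 22_1) and 2 males (2_2, 17_1), and the wild types were 1 female (8_1) and 4 males (7_1, 10_1, 17_7, 22_4).

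Left and right are set apart before the heart loops. Motile cilia in the node drive a leftward flow, after which NODAL signals in the left lateral plate mesoderm and induces its own inhibitors LEFTY1 and LEFTY2. CCDC40 is a component that motile cilia need for their beat, and without it no directed flow forms, so that sidedness varies from embryo to embryo. Each library held one side of the dorsal pericardial wall and neighbouring tissue down to the second somite, without the heart tube, cut along the midline. The tissue contains cardiac progenitors of the second heart field and their neighbours, foregut endoderm among them. In such bulk tissue, fewer cells of a type and less RNA per cell cannot be told apart.

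The 10 libraries held 36572530 to 51015555 counts, within the range of 36073684 to 62970327 over all 42, and 29203 to 31154 genes had at least 1 count. *Ccdc40* (chromosome 11) averaged 10.9 to 13.5 CPM (counts scaled to a common library size, as in all levels below) over both sides of the 5 mutants and 19.7 to 22.7 CPM in the 5 wild types. The mutant level was 0.581 times that of the wild types (exact permutation test on log2 levels, two-sided, p = 0.00794, the smallest p that 5 against 5 can give), and the groups did not overlap. Transcripts of the sex chromosomes matched the labelled sex in 42 of 42 libraries. Embryo 2_2 stood apart in its tissue content. The summed CPM of 21 heart muscle genes was 2445 on its left and 983 on its right, against 3982 to 8710 in the other 8 libraries. *Wnt2*, a ligand of cardiopulmonary progenitors, reached 27.7 and 3.04 CPM on the left and right of 2_2, against 147 to 280 CPM in the other 8. Values that rest on 2_2 are given below with and without it.

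The sequences upstream of *Afp* and *Ccn4*, a gene of the yolk sac endoderm and a WNT target that both stood on the left in all 5 mutants, are shown because they stand for the 2 patterns described next. Each line gives the 250 bases before the start of the canonical transcript, read from GRCm39, on the + strand, at chr5:90638334-90638583 for *Afp* and chr15:66762909-66763158 for *Ccn4*. Capitals mark a core motif of the liver and endoderm factor HNF1 (GTTAAT) in *Afp* and a core motif of the WNT effectors TCF and LEF (CTTTGA, here on the other strand) in *Ccn4*.
Afp: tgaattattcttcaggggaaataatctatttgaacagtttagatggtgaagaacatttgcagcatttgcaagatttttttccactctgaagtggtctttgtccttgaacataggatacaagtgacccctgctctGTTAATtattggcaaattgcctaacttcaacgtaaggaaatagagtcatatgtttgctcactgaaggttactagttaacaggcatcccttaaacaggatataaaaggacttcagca
Ccn4: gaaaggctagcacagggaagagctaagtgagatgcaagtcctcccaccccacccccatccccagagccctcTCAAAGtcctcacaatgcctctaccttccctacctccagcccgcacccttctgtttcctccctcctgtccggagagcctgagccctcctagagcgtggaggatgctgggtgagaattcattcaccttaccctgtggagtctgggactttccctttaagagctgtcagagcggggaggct
On either strand, GTTAAT occurred in 6.28% and CTTTGA in 14.1% of 21770 windows of this length upstream of protein-coding genes. A match of letters is a description and not evidence of binding.

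Across the genome, few genes kept 1 side in all 5 mutants. Of 22903 genes that passed the filter on low counts, 925 (4.04%) were higher on the right and 911 (3.98%) higher on the left in 5 of 5 embryos. With library size alone as the scale these counts were 640 and 1134, although that scaling moved no embryo's ratio by more than 0.05 on the log2 scale. Of 10968 protein-coding genes with a mean of at least 200 counts on their higher side, 557 (5.08%) were right and 452 (4.12%) left in all 5. In edgeR's paired fit 0 of 22903 genes (0%) had an adjusted p under 0.05 and 1387 (6.06%) an unadjusted p under 0.05, while DESeq2 called 192, of which 42 were right and 150 left. These counts describe embryos that were chosen by such values and support nothing beyond that.

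Ordered by the smallest of the 5 log2 ratios of right to left, the 10 left-leading protein-coding genes included *Afp*, *Ttr*, *Pitx1*, *Misp3*, *Ctsh*, *Spp2*, *Bmper*, *Apom* and *Pag1*. Their smallest log2 differences, taken as left minus right, ran from 1.01 for *Afp* to 0.51 for *Pag1*, and *S100g* (0.51) and *Ccn4* (0.50) came just after them. The right-leading genes were *Ptgfr*, *Ap3b2*, *2510009E07Rik*, *Igf1*, *Sncaip*, *Tmem204*, *Akap17b*, *Galnt18*, *Vcan* and *Cd109*, with smallest ratios from 0.46 to 0.18, followed by *Zfp40* with 0.17. All 20 genes kept their side in all 5 embryos when library size alone set the scale. *Pitx1*, *Ccn4*, *Misp3*, *Ttr* and *Ptgfr* share exon sequence with other annotated genes, so reads of the overlap cannot be assigned with certainty.

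**Figure D1:**
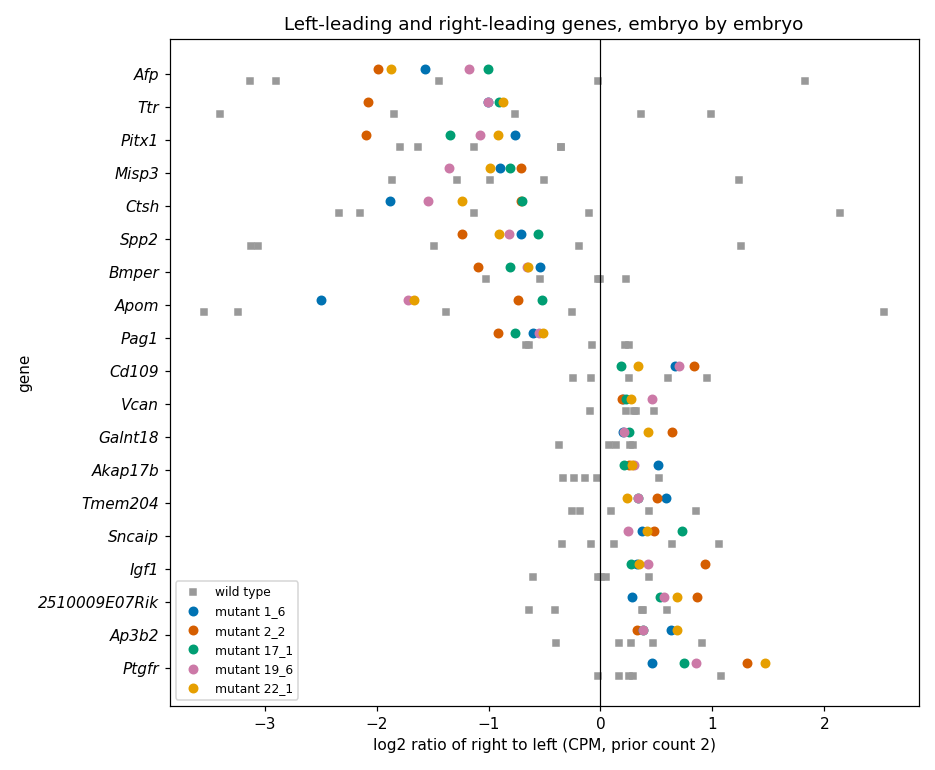
Log2 ratio of right to left (x axis, CPM with a prior count of 2) of left-leading and right-leading genes (y axis), with coloured circles for the 5 situs solitus mutants, which selected these genes, and grey squares for the 5 wild types. The ratios of *Afp* lie between -1.98 and -1.01 in the mutants, and several left-leading genes have 1 wild type, 8_1, far on the right, at 1.83 for *Afp*.

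*Nodal* and its inhibitors were low at this stage. *Lefty2*, the secreted inhibitor of NODAL, had left CPM of 2.38, 4.96, 1.13, 5.07 and 2.06 and right CPM of 1.20, 0, 0.238, 2.40 and 0.953 in 1_6, 2_2, 17_1, 19_6 and 22_1. Left exceeded right within each embryo, while the sides overlapped between embryos. On the left of 2_2 it had 263 counts and on the right 0, so with a limit of 3 counts its CPM was at least 74.3-fold higher on the left, and without 2_2 the log2 fold change was -1.27 ± 0.24 (SE, n = 4). *Nodal* itself had 0 to 9 counts per library and did not pass the filter, and *Lefty1*, the midline inhibitor, had 4 to 15. *Cfc1*, which encodes the NODAL co-receptor CRYPTIC, was left in 5 of 5 with a log2 fold change of -0.37 ± 0.14. Its relative *Cripto* changed side between embryos, with log2 ratios of 4.16, -3.16, 0.39, 3.76 and 3.26 in 1_6, 2_2, 17_1, 19_6 and 22_1. Of 19 list members that passed the filter, 0 were right and 3 left in all 5, *Lefty2* and *Cfc1* among them, beside 4.04% right and 3.98% left over all genes, and the median log2 fold change of the list was -0.05, beside -0.01 over all genes.

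*Pitx1*, a homeobox factor known from hindlimb and pituitary, was low and left-sided. Its left CPM were 2.62, 5.56, 3.76, 6.40 and 3.84 and its right CPM 1.52, 1.27, 1.45, 3.01 and 2.02 in 1_6, 2_2, 17_1, 19_6 and 22_1. Only the right side of 19_6 exceeded the lowest left value. The log2 fold change was -1.27 ± 0.21, and *Pitx1* was also left in 5 of 5 wild types, where its log2 ratios ran from -1.79 to -0.35.

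**Figure D2:**
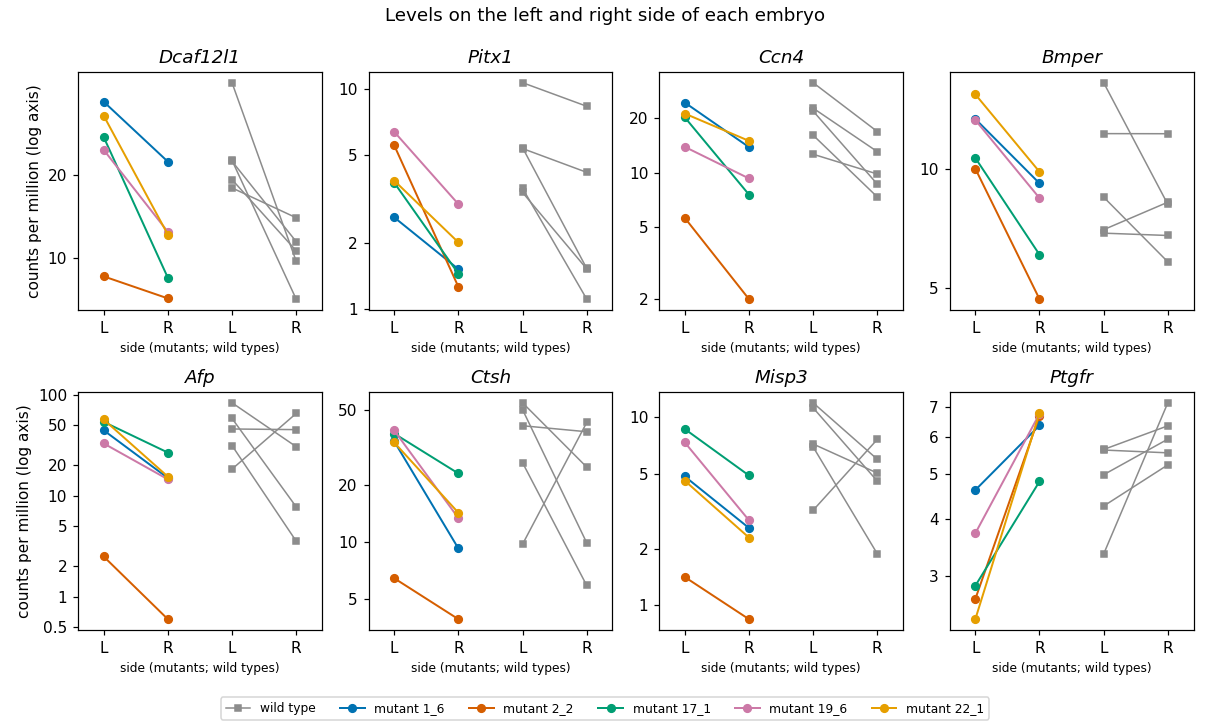
CPM (y axes, log scale) on the left (L) and right (R) side of each embryo for 8 genes, with coloured circles for the 5 mutants and grey squares for the 5 wild types, and a line joining the 2 sides of an embryo. *Dcaf12l1*, *Pitx1* and *Ccn4* fall from left to right in all 10 embryos, while *Afp*, *Ctsh* and *Misp3* fall in all 5 mutants and rise in 1 wild type.

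Most genes of the WNT list of ligands, receptors and modulators were left by their mean. *Ccn4*, a matricellular protein induced by WNT, had left CPM of 24.3, 5.62, 20.2, 13.9 and 21.2 and right CPM of 13.8, 2.00, 7.56, 9.27 and 15.0. Left exceeded right in every embryo by a log2 fold change of -0.95 ± 0.17, with the sides overlapping between embryos and 2_2 lowest on both. *Trabd2b*, a membrane protease that inactivates WNT ligands, had a log2 fold change of -0.67 ± 0.14, and *Wnt11*, a ligand of non-canonical signalling, had -0.95 ± 0.32, or -0.59 ± 0.18 without 2_2. *Wnt6* had -0.42 ± 0.12. The frizzled-related inhibitors *Sfrp1* and *Sfrp5* were left in 5 of 5, with -0.29 ± 0.06 and -0.63 ± 0.21. The receptor *Fzd10* was right in 5 of 5, with 0.44 ± 0.17, although its ratio in 2_2 was 0.03. Of 45 ligands, receptors and modulators, 6 were left and 1 right in all 5, beside 3.98% left and 4.04% right over all genes. By their mean 36 of the 45 were left, beside 11484 of all 22903 genes. The list median was -0.21, beside -0.01 over all genes. The summed CPM of the 45 genes had log2 ratios of 0.05, -0.32, -0.30, -0.14 and 0.01 in 1_6, 2_2, 17_1, 19_6 and 22_1, so that 3 of 5 embryos were left. Of 13 targets and feedback genes, *Ccn4* alone kept 1 side in all 5, and the list median was 0.01. Whether the 2 lists differ was not tested.

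Most genes of the BMP list were also left by their mean. *Bmper* (chromosome 9), a secreted protein that binds BMPs, had left CPM of 13.4, 10.0, 10.7, 13.3 and 15.5 and right CPM of 9.22, 4.69, 6.08, 8.46 and 9.86. The sides did not overlap over the 5 embryos, and the log2 fold change was -0.76 ± 0.11. In the wild types *Bmper* was not one-sided, with log2 ratios of 0.23, -1.02, -0.54 and -0.02 in 7_1, 8_1, 10_1 and 17_7 and no difference in 22_4. The ligand *Bmp2* had -0.33 ± 0.09 in the mutants, and the target *Id4*, an inhibitor of basic helix-loop-helix factors, had -0.29 ± 0.11. Of 29 list members, 6 were left in all 5 (*Bmp2*, *Bmpr2*, *Bmper*, *Smad7*, *Id4*, *Msx2*), beside 3.98% over all genes. The 1 member right in all 5 was *Fst*, a secreted antagonist of activin and BMP, beside 4.04% over all genes. By mean, 23 of the 29 were left, beside 11484 of all 22903 genes. The list median was -0.16, beside -0.01 over all genes. The summed CPM of the list was left in 4 embryos, with log2 ratios of -0.19 to -0.08, and at 0.03 in 1_6. Over the 16 embryos outside the selected mutants, *Bmp2* was on the side of the summed heart muscle list in 16, as was 0.24% of all genes, *Id4* in 14 (3.02%) and *Bmper* in 12 (11%). The part of heart muscle in their left-sidedness was not tested.

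On the right, *Ptgfr*, the receptor of prostaglandin F2-alpha, came first in the order by smallest ratio. Its left CPM were 4.61, 2.68, 2.86, 3.72 and 2.42 and its right CPM 6.37, 6.69, 4.81, 6.75 and 6.78 in 1_6, 2_2, 17_1, 19_6 and 22_1. Every right value lay above every left one, with a log2 fold change of 0.97 ± 0.17. In the wild types the log2 ratios were 0.17, 1.08, 0.25, -0.02 and 0.29 in 7_1, 8_1, 10_1, 17_7 and 22_4, with a log2 fold change of 0.34 ± 0.18. Right thus exceeded left in 4 of 5 wild types. *Ptgfr* was the single member of 13 prostaglandin pathway genes with 1 side in all 5, beside 4.04% right and 3.98% left over all genes. The growth factor *Igf1* had a log2 fold change of 0.46 ± 0.10, or 0.34 ± 0.08 without 2_2. *Vcan*, a large proteoglycan of the cardiac jelly, was abundant and only slightly right-sided, with left CPM of 239 to 326, right CPM of 279 to 380 and a log2 fold change of 0.26 ± 0.05. *Stra6*, the receptor for retinol-binding protein, was the single member of 17 retinoic acid genes with 1 side, at 0.28 ± 0.07, beside the same shares.

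Among 32 genes of the extracellular matrix, 4 were left (*Col5a1*, *Dcn*, *Tnc*, *Sparc*) and 2 right (*Vcan*, *Fbn2*) in all 5, beside 3.98% left and 4.04% right over all genes. *Postn*, which encodes periostin, had left CPM of 37.6, 10.2, 28.6, 10.3 and 32.3 and right CPM of 7.15, 1.11, 9.13, 11.3 and 14.1. It was thus left in 4 embryos and slightly right in 19_6, with a log2 fold change of -1.61 ± 0.40, or -1.29 ± 0.34 without 2_2. *Dcn*, which encodes decorin, had -0.41 ± 0.14. *Tnc*, which encodes tenascin C, had -0.54 ± 0.19, or -0.28 ± 0.07 without 2_2.

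*Retreg1*, a receptor for autophagy of the endoplasmic reticulum, and *Hspb8*, a small heat shock protein, are further genes named by the study. *Retreg1* had log2 ratios of -2.01, -0.90, -1.22, -1.10 and 0.15 in 1_6, 2_2, 17_1, 19_6 and 22_1, and so was left in 4 of 5. *Hspb8* was left in 5 of 5, with a log2 fold change of -0.63 ± 0.14. Over the 16 embryos outside the selected mutants, *Hspb8* was on the side of the heart muscle list in 13, a count that 6.31% of genes reached. *Retreg1* was on the side of the yolk sac list, described below, in 12 (4.97%). The part of these tissues in their left-sidedness was not tested. Of the 21 genes named in the study text that passed the filter, 9 were left and 2 right in all 5, beside 3.98% and 4.04% over all genes. The study picked many of these genes on these same libraries, so the direction of the list is no independent evidence.

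A second group of left-leading genes was of the visceral endoderm of the yolk sac, the absorptive layer that secretes serum proteins before the liver does. *Afp* (chromosome 5), alpha-fetoprotein, had left CPM of 44.5, 2.51, 54.0, 33.0 and 57.0 and right CPM of 15.0, 0.60, 26.8, 14.6 and 15.5 in 1_6, 2_2, 17_1, 19_6 and 22_1. Apart from 2_2, which was low on both sides, every left value exceeded every right one, and the log2 fold change was -1.48 ± 0.15. *Ttr*, the thyroid hormone carrier transthyretin, had -1.07 ± 0.13, and *Apob*, the apolipoprotein of secreted lipoproteins, had -1.19 ± 0.21. The retinol carrier *Rbp4*, at 10.1 to 356 CPM on the left, had -1.44 ± 0.31. Of 10 list members that passed the filter, 7 were left in all 5 (*Afp*, *Ttr*, *Apoa1*, *Apoa2*, *Apob*, *Rbp4*, *Cubn*), beside 3.98% over all genes. By their mean 10 were left, beside 11484 of all 22903 genes. The list median was -1.33, beside -0.01 over all genes. *Alb*, a member at 0 to 0.327 CPM, did not pass the filter.

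The summed CPM of these 10 genes was 770, 43.2, 758, 715 and 806 on the left and 223, 28.2, 448, 278 and 368 on the right of 1_6, 2_2, 17_1, 19_6 and 22_1. Right exceeded left in none of them, and the log2 ratios were -1.79, -0.61, -0.76, -1.36 and -1.13. In the wild types they were -2.72, 1.91, -3.11, -1.03 and -0.08 in 7_1, 8_1, 10_1, 17_7 and 22_4, so 1 wild type, 8_1, had the opposite side. Over the 16 embryos outside the selected mutants, the list was on the right in 7, 3 of them inverted mutants.

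Left-leading genes varied in how often they were on the side of this list. Among those 16 embryos, *Ctsh* (the protease cathepsin H), *Apom* (an apolipoprotein) and *Spp2* (a secreted phosphoprotein) were on its side in all 16. The same held for 0.135% of all genes tested. *Misp3* was on the side of the list in 15 of 16 (0.515% of genes reached this count). *Pag1*, an adaptor of SRC family kinases, was on its side in 13 (2.45%). By contrast *Pitx1* was on its side in 9 and *Bmper* in 8, where the median over all genes was 8. *Ccn4* was on its side in 11, a count that 10.5% of genes reached, and in 13 on that of heart muscle (6.31%). It was on the side of the paraxial mesoderm list in only 2, where 99.8% of genes reached at least 2. *Misp3*, a gene named in the study text, had left CPM of 4.83, 1.41, 8.62, 7.31 and 4.58 and right CPM of 2.57, 0.844, 4.89, 2.83 and 2.29 in the mutants. In wild type 8_1 it was 3.19 CPM on the left and 7.59 on the right. The part of the yolk sac endoderm in the left-sidedness of *Misp3*, *Ctsh*, *Apom*, *Spp2* and *Pag1* was not tested. Nor was the part of heart muscle or paraxial mesoderm in that of *Ccn4*.

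**Figure D3:**
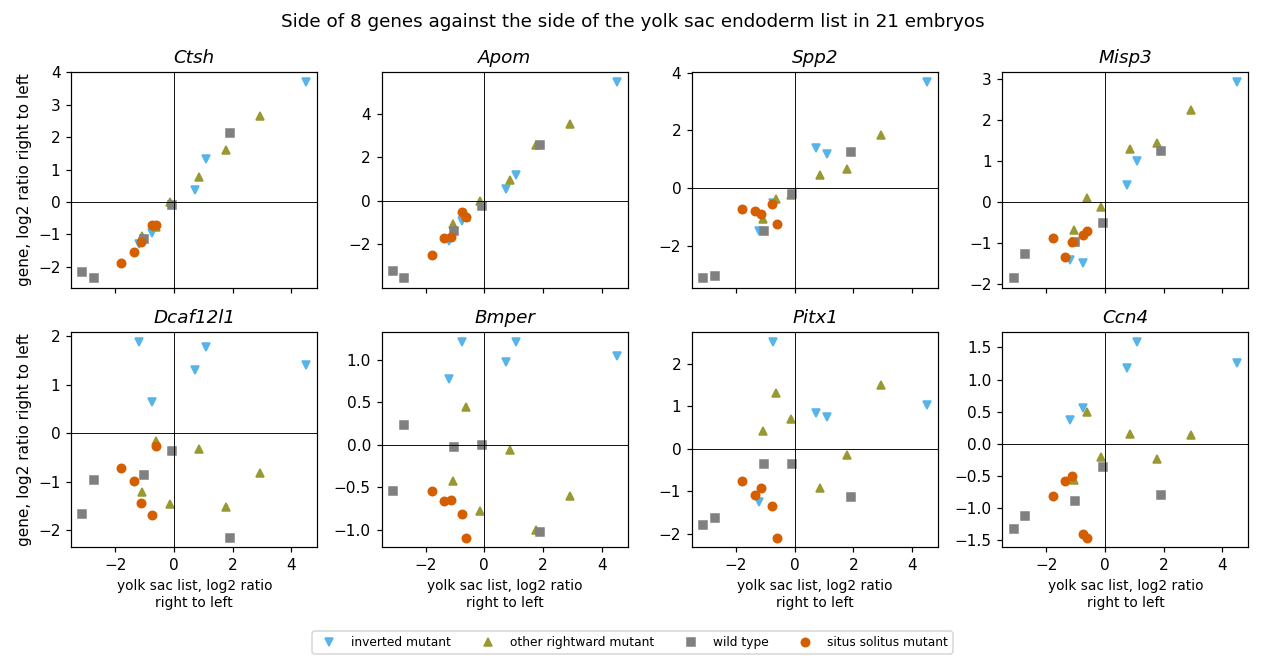
Log2 ratio of right to left of 8 genes (y axes) against that of the summed CPM of the yolk sac endoderm list (x axes) in all 21 embryos, with orange circles for the 5 situs solitus mutants, grey squares for wild types, olive upward triangles for the 6 other rightward mutants and blue downward triangles for inverted mutants. *Ctsh*, *Apom* and *Spp2* have the sign of the list in all embryos, whereas *Dcaf12l1* is positive in the inverted mutants whichever side the list is on.

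Most other marker lists varied in side between embryos, apart from paraxial mesoderm, described below, and surface ectoderm. The summed surface ectoderm list was left in all 5 mutants, with log2 ratios of -0.42 to -0.05. Of 21 heart muscle genes, of 10 genes of the anterior second heart field and of 15 neural tube genes, 0 kept 1 side in all 5 mutants, beside 4.04% right and 3.98% left over all genes. The summed heart muscle CPM had log2 ratios of 0.41, -1.31, -0.20, 0.21 and 0.24 in 1_6, 2_2, 17_1, 19_6 and 22_1. The anterior second heart field list had 0.44, -0.19, -0.18, -0.19 and -0.12, and the neural tube list -0.75, -0.08, 0.37, 1.20 and -0.16. Embryos thus differed in sign on each, and the anterior second heart field list was left in 4 of 5. Of 14 paraxial mesoderm genes 3 were right in all 5, beside 4.04% over all genes. They were *Pax3*, *Tcf15* and *Nkx3-2*, transcription factors of somites and their derivatives. By their mean 8 members were right and 6 left, beside 11419 right and 11484 left over all genes, with a list median of 0.07. *Pax3* had a log2 fold change of 1.06 ± 0.25 and *Tcf15* 1.11 ± 0.31, but *Tcf15* had log2 ratios of only 0.01 in 1_6 and 0.09 in 22_1. The summed list was right in 5 of 5 mutants, with log2 ratios of 0.05 to 0.96, and in 4 of 5 wild types. Over the 16 embryos outside the selected mutants, the right-leading gene *Sncaip* was on the side of this list in 15, a count that 0.336% of genes reached, *Stra6* in 14 (1.41%), and *Ptgfr* and *Galnt18* in 13 (4.45%). On the side of the neural tube list were *2510009E07Rik* in 14 (1.57%) and *Ptgfr*, *Sncaip* and the WNT receptor *Fzd10* in 13 (4.34%). The part of paraxial mesoderm or neural tube in the right-sidedness of these genes was not tested. Of 15 foregut endoderm genes the claudins *Cldn6* and *Cldn7* were left in all 5, with -0.24 ± 0.06 and -0.37 ± 0.07, beside 3.98% over all genes. The summed foregut list had log2 ratios of -0.03, -0.40, -0.35, -0.15 and 0.01 in 1_6, 2_2, 17_1, 19_6 and 22_1.

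**Figure D4:**
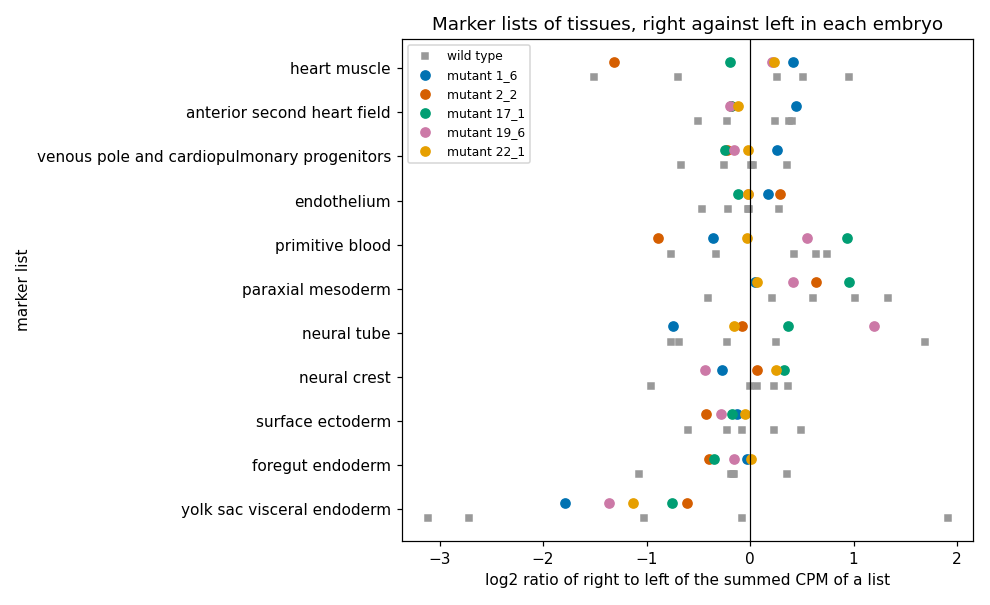
Log2 ratio of right to left of the summed CPM (x axis) of 11 tissue marker lists (y axis), with coloured circles for the 5 situs solitus mutants and grey squares for the 5 wild types. The yolk sac list lies between -1.79 and -0.61 in the mutants and between -3.11 and 1.91 in the wild types, and heart muscle in 2_2 lies at -1.31.

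The remaining lists each had 0 or 1 member with 1 side in all 5, beside 4.04% right and 3.98% left over all genes. Of 6 genes of the surface ectoderm *Wnt6* was left in all 5. Of 17 genes of dividing cells *Mcm5*, a subunit of the replicative helicase, was right in all 5, with 0.11 ± 0.03. By their mean 16 of 17 were right, beside 11419 of all 22903 genes. The list median was 0.05, beside -0.01 over all genes. Of 17 genes of the venous pole and cardiopulmonary progenitors *Meis2* was right in all 5, and of 15 endothelial genes *Pecam1* was, with 0.20 ± 0.07. *Wnt2* (log2 fold change -0.49 ± 0.40) and *Gal*, a neuropeptide (-0.40 ± 0.45), had differences that rested on 2_2, and were -0.05 ± 0.10 and 0.00 ± 0.21 without it. Over the 16 embryos outside the selected mutants, *Wnt2* was on the side of the heart muscle list in 16 (0.24% of genes). *Gal* was on its side in 15 (1.21%). The part of heart muscle in these values was not tested. *Osr1*, a zinc finger factor of the posterior second heart field, was left in 4 embryos and right in 1_6, with -0.44 ± 0.22, or -0.27 ± 0.21 without 2_2, -0.70 ± 0.12 without 1_6 and -0.06 in the 3 females alone. Primitive blood, neural crest, immediate early genes and glycolysis genes had 0 members with 1 side in all 5.

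The 5 mutants differed from one another more than the leading genes show. Over the 10968 protein-coding genes, Pearson's r between the log2 ratios of 2 embryos was 0.44 for 17_1 with 19_6 and 0.42 for 17_1 with 2_2, but -0.39 for 1_6 with 19_6, -0.22 for 1_6 with 2_2 and -0.16 for 1_6 with 17_1. These are descriptions across genes, which are not independent. Embryo 1_6 had hindbrain genes on the left, where the neural factor *Pou3f2* had a log2 ratio of -7.69 and *Hes3*, a repressor in neural progenitors, -6.89. In 19_6 the same 2 genes were on the right, with 6.03 and 7.02. Prolactin family genes of the placenta also changed side, with *Prl7a1* at 2.88 in 1_6 and -2.87 in 19_6. In 2_2 the largest left ratio was that of the complement gene *C3*, at -7.58. These genes were picked after their values were seen, from the most one-sided of each embryo. Leaving out 1_6 raised the number of genes with 1 side in the other 4 to 2126 right and 2182 left, of 22903 genes, the largest number for any embryo left out. Without it 6 of 10 genes of the anterior second heart field, 11 of 29 BMP genes and 13 of 45 WNT genes were left in all 4. On the right in all 4 were 6 of 14 paraxial mesoderm genes, 5 of 15 neural tube genes and 5 of 17 genes of dividing cells. When 2_2 was left out instead, the left counts of these lists were 0, 6 and 9 and the right counts 3, 0 and 2. Over all genes that fit had 1620 right and 1594 left. Embryo 1_6 was singled out on these same values, so the counts without it are a description.

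In the wild types, edgeR's paired fit found 0 of 23182 genes (0%) with an adjusted p under 0.05 and 639 (2.76%) with an unadjusted p under 0.05, and DESeq2 called 20. Of the 22903 genes above, 666 (2.91%) were right and 502 (2.19%) left in all 5 wild types. For *Postn* the wild-type log2 fold change was -1.24 ± 0.16 with an adjusted p of 0.793 in edgeR, left in 5 of 5. With 5 embryos a sign-flip test cannot go below 0.0625. The wild types' mean direction was that of the mutants for 10 of the 10 left-leading and 8 of the 10 right-leading genes, and for 56.4% of all genes tested. Among protein-coding genes with 200 counts and 1 side in all 5 mutants, it was 71.9% of those on the left and 60.1% of those on the right. *Igf1* and *Akap17b* were the 2 exceptions. The mutants were chosen for lying with the wild types in this measure, so these counts are a description and no independent evidence. A re-creation of the study's procedure, which may differ from the study's own gene set, gave 30 genes that could have entered its tree, 2 of the 20 leading genes among them. Without these 2 the count was 16 of 18, which does not undo the choice of embryos. The number of the 20 on the same side in all 5 wild types was 2, of which *Pitx1* was one. Without the 2 genes that could have entered the tree it was 0 of 18. Among the 1836 genes with 1 side in all 5 mutants, 3.92% had that side in all 5 wild types. Over all genes, 72 (0.314%) had the same side in all 10 embryos. The most one-sided of them with 200 counts included *Pitx1*, *Ccn4*, *Scn3a* (a neuronal sodium channel) and *Dcaf12l1* on the left, and *Ndufa4l2*, *Nav1*, *Bbs12*, *G2e3* and *Zfp623* on the right, the latter with log2 ratios as small as 0.02.

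**Figure D5:**
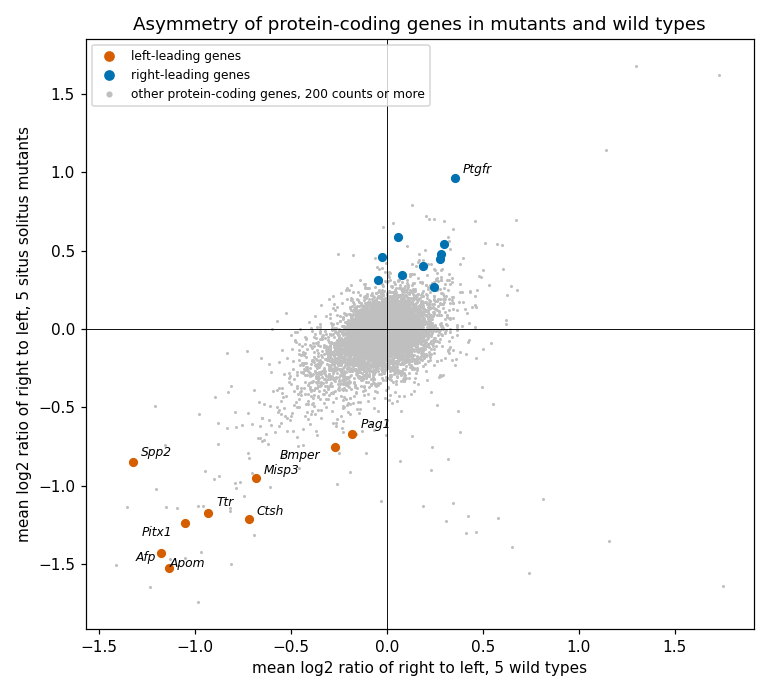
Mean log2 ratio of right to left in the 5 situs solitus mutants (y axis) against that in the 5 wild types (x axis) for protein-coding genes (grey), with left-leading genes in orange and right-leading genes in blue, both chosen on the mutants. The left-leading genes shown all lie left of 0 on the x axis.

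The interaction of side and genotype, fitted over the 20 libraries of mutants and wild types, gave 0 of 22802 genes (0%) at an adjusted p under 0.05 in edgeR, with 599 at an unadjusted p under 0.05, and DESeq2 called 0. Because the mutants had been chosen for resembling the wild types in this measure, this count is a description too.

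All 11 rightward mutants, a group that the labels define by looping alone, allow a test that the choice of the 5 does not touch. There, 6 of 22795 genes (0.0263%) were called by edgeR's quasi-likelihood test, all higher on the left. They included *Rerg*, a RAS-like GTPase (log2 fold change -1.06 ± 0.13, adjusted p = 0.00870), *Lpl*, lipoprotein lipase (-0.42 ± 0.06, 0.0348), *Gm35533* (-1.07 ± 0.15, 0.0348), *Ntsr1*, a neurotensin receptor (-1.10 ± 0.16, 0.0364) and *Dcaf12l1* (-0.97 ± 0.15, 0.0409). Each of these was left in 11 of 11 embryos, and so in the 5 situs solitus mutants as well. *Rerg* passed in each of the 11 fits that left out 1 embryo, whereas the number called fell to 2 without 17_1, 18_1, 19_6, 1_6, 22_1, 32_3 or 3_7 and to 3 without 23_3. Without the embryo as a replicate block, none of the 5 genes named here passed. Their log2 fold changes in the 5 mutants alone were -0.92 ± 0.20 for *Rerg*, -0.50 ± 0.08 for *Lpl*, -1.27 ± 0.25 for *Gm35533*, -1.11 ± 0.23 for *Ntsr1* and -1.04 ± 0.19 for *Dcaf12l1*. In the 5 inverted mutants these genes were on the right in 5 of 5. *Ptgfr* was right in 10 of 11 rightward mutants (adjusted p = 0.576 in edgeR and 0.00818 in DESeq2) and left in 5 of 5 inverted ones, and *Bmper* was left in 10 of 11 (adjusted p = 0.428 in edgeR and 0.00208 in DESeq2) and right in 5 of 5.

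*Pitx1*, *Ccn4* and *Misp3* did not hold their side in the 6 other rightward mutants. There *Pitx1* was left in 2 of 6, *Ccn4* in 3 of 6 and *Misp3* in 2 of 6, while *Lefty2* was left in 6 of 6. The 2 sets of mutants were divided on asymmetry values of such genes, so the contrast is a description. The yolk sac list was on the left in 3 of these 6 embryos.

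The level of both sides together, which the tree did not use, was compared between groups with sex as a covariate. Against wild types, 1 of 27037 genes (0.00370%) was called by edgeR, namely *Ccdc40*, which was lower by a log2 fold change of -0.75 ± 0.08 (adjusted p = 0.00217, lower in 5 of 5). DESeq2 called 3 more, *Pmp22* (a myelin protein, -0.54), *Il22ra1* (an interleukin receptor subunit, -1.52) and *Plxnb1* (a semaphorin receptor, 0.31). Against the 6 other rightward mutants edgeR called 0 of 27037 genes (0%), with 1347 at an unadjusted p under 0.05, and DESeq2 called 11, *Pmp22* and *Msx2* among them, both lower in the situs solitus mutants. No member of the lists other than *Msx2* was called in either comparison by either tool. *Lefty2* averaged 2.04 CPM in the 5 mutants, 0.830 in wild types and 3.32 in the other 6, with overlapping ranges (adjusted p = 0.935 and 0.936 in edgeR). *Postn* averaged 16.2 CPM in the 5 mutants and 40.4 in wild types, where 17_7 reached 94.2 (adjusted p = 0.935 in edgeR).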

How the data were processed

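Per the labels and the methods of the study, polyadenylated RNA of each heart field side was amplified with a low-input kit that does not mark strand and sequenced in pairs. The authors removed adapters and duplicates, aligned with STAR to GRCm39 and deposited raw counts per gene from featureCounts. Whether reads of overlapping genes were counted once is not given in the sources used here. From these counts, edgeR 4.0.16 (R 4.3.3) fitted quasi-likelihood models after TMM scaling, with filterByExpr (minimum count 5, minimum total 10, minimum share 0.2) and the embryo as a block for side. Both libraries of a pair came from the same embryo, and deviations of the 2 sides correlated with r = 0.04 to 0.74 over 2000 genes. Levels were fitted on summed sides with sex. Adjusted p-values follow Benjamini and Hochberg over all genes of a fit, and 0.05 was the threshold. CPM used TMM over all 42 libraries, and log2 ratios a prior count of 2. DESeq2 1.42.0, other filters and scalings, and leaving out each embryo were alternatives. Scripts were tested on simulated data. The members, gene lists and tests were chosen with earlier results of these data known. Named genes were those of the study text, the 10 leading genes a side with at least 200 counts, called genes, up to 3 one-sided members a list, and genes with 1 side in all mutants and wild types. Some genes that meet these rules are not reported here.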

Additional observations from a re-analysis of the deposited data

Results flagged for a closer look

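Of 164 sets of embryo values examined, 12 held 1 embryo far from the other 4 of its group by Dixon's criterion, which chance alone passes in about 1 of 20 sets. Mutant 2_2 gave 7 of the 12, all log2 ratios of right to left. They were -6.80 for *Lefty2* (where the right side had 0 counts, so that the ratio depends on the prior count), -3.50 for *Gal*, -3.16 for *Wnt2*, -2.61 for *Wnt11*, -2.08 for *Ttr*, -1.60 for *Tnc* and 0.93 for *Igf1*. Mutant 1_6 stood apart in the summed anterior second heart field list, at 0.44. Among wild types, 8_1 stood apart for *Ptgfr* at 1.08, 10_1 for *Wnt16* at 2.57 and *Cldn7* at -1.01, and 22_4 for the summed neural crest list at -0.96.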

How the results depend on the processing

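For right against left in the 5 mutants, where edgeR called 0 genes, DESeq2 called 192, edgeR without the filter on low counts 31, the fit of all 42 libraries 1 and the 3 females alone 13. Fits that left out 1 mutant called 0 to 1 (1 without 1_6, *Ttr* without 2_2 and *Apoa1* without 17_1). In the wild types DESeq2 called 20 and the fit without the filter 2, *Postn* among them. In the 11 rightward mutants DESeq2 called 32 against 6, and leaving out 1 embryo gave 2 to 8. Without the replicate block by embryo, edgeR called 0 genes in the 5 mutants and 1 in the 11, which was neither *Rerg* nor any of the other 4 genes named for that comparison. DESeq2 called 4 genes in levels against wild types and 11 against the other rightward mutants. With at least 200 counts on the higher side, 576 genes were right and 478 left in all 5 mutants. Leaving out 1 mutant gave 1412 to 2126 right and 1403 to 2182 left, because a rule over 4 embryos is looser. The 60 named genes moved by less than 1 SD between embryos under DESeq2, library size alone, no block and each embryo left out, but 4 of them changed sign in some of these fits. They were *Gal* without 2_2 (0.00), *Shox2* (from 0.01) without 2_2 (-0.05), 1_6 (-0.01) or 22_1 (-0.14) and, by under 0.02, with library size alone, *Sfrp2* without 19_6 (-0.05) and *Wnt16* without the block (0.09). In the 3 females alone *Wnt2* (0.06) and *Sfrp2* (-0.03) changed sign. Why DESeq2 called more was not tested. With 5 pairs, low genes such as *Nodal* are limited by depth.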
